A study of Homo sapiens with 6 samples.

Results

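Wnt ligands, their receptors and the proteins that restrain the pathway were measured in SKOV3 and A2780s cells, established human ovarian cancer cell lines that carried vectors made to lower (SKOV3) or to raise (A2780s) Hic-5. The set held 45 genes: 15 Wnt ligands, 10 Frizzled receptors, 2 LRP co-receptors, 7 secreted antagonists, 4 components of the β-catenin destruction complex counted with β-catenin itself, 4 TCF/LEF factors and 3 feedback inhibitors. A gene was taken from the array by its printed gene name, and where it had more than 1 probe the brightest probe stood for it. All 45 genes were among the 29123 gene names of the array, with 76 of its 41000 probes, and 23 of them had more than 1 probe.

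The study asked how Hic-5, a focal adhesion adaptor encoded by TGFB1I1, shapes gene expression in epithelial ovarian cancer cells. In SKOV3, the puromycin-selected clones sh-S1 and sh-S2, which carry a pLKO.1 lentiviral shRNA against Hic-5, were set against a mock clone with a scrambled shRNA (Ctrl). In A2780s, 1 neomycin-selected clone that expresses Hic-5 from a pCMV6 vector (pCMV-Hic-5) was set against a clone with the empty vector (Ctrl). Each modified clone was hybridized together with its Ctrl on 2 arrays with the dyes Cy3 and Cy5 exchanged, which gave 4 arrays for SKOV3 and 2 for A2780s. Both shRNA clones were measured against the same Ctrl RNA, and every line stands for 1 selected clone, so a difference between a clone and its Ctrl and a difference between clones of any kind cannot be told apart.

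Wnt ligands are secreted lipid-modified proteins that bind a Frizzled receptor together with LRP5 or LRP6. Binding stops the complex of APC and the AXIN proteins from marking β-catenin for degradation, and β-catenin then enters the nucleus and activates genes with the TCF/LEF factors. Secreted antagonists act at either end of the ligand and receptor contact: the SFRP proteins and WIF1 bind the ligands, and DKK1 and DKK2 bind the LRP co-receptors. Several members, such as AXIN2, NKD1 and RNF43, are themselves induced by β-catenin in many cell types and dampen the signal.

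The sequences below identify what was read for the members that the results turn on. The first 30 of the 60 bases of each probe are shown, because a gene's value rests on that short stretch and different probes of DKK3 and WNT6 gave different values. Coordinates are those printed in the array files for the whole probe, on hg19.
DKK1 (chr10:54076687-54076746, plus strand): aataacaccttccaaaaacctggagtgtaa
DKK3, brightest probe (chr11:11984813-11984872, minus strand): gtgtgaaacatggttgtaatatgcgactgc
DKK3, other called probe (chr11:11984915-11984974, minus strand): ggtaattgtagggcgaggattataaatgaa
DKK3, dimmest sense probe (chr11:11985469-11985528, minus strand): tgcagatgaaatgttctgttcaccctgcat
FZD7 (chr2:202902930-202902989, plus strand): ttttaaaactccaacacaggttttggcatc
FZD8 (chr10:35927378-35927437, minus strand): actgaccttaggcatggagaaaattacttg
WNT6, bright probe (chr2:219738280-219738339, plus strand): cccgccgtccgcacgctcaagccgccgggc
WNT6, dim probe (chr2:219738852-219738911, plus strand): tggaaaaaagccagtctaaaggcctctgga
The bright WNT6 probe is 76.7% G and C over its 60 bases, against 55.0% for the dim probe of the same transcript. Both target sequences of the Hic-5 shRNAs are given as the labels print them, since they define the SKOV3 clones, and which clone carries which of them is not given.
shRNA target 1: cagttcaacatcacagatgaa
shRNA target 2: cggttgcttcaggaacttaat
The β-catenin partners of the TCF/LEF family recognize a short motif, and CTTTGA, with its reverse complement TCAAAG, was searched in the 250 bases before the start of each gene in the RefSeq promoter table (GRCh38.p14). The table held 39 promoters for 31 of the 45 members. Only DKK1 had the motif among them, with 2 matches, while 11.2% of all 35116 promoters in the table held it. The DKK1 stretch is shown with the matches in capitals, as the member with the largest positive ratio in SKOV3.
DKK1 promoter (chr10:52314031-52314280, plus strand): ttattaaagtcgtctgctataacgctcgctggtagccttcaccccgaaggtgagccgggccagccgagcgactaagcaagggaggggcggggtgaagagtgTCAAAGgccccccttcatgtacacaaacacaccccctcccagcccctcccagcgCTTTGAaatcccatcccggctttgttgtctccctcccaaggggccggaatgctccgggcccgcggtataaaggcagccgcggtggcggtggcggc
A match of these letters is a description of the sequence, and no binding was measured.

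The median net signal of the arrays was 325 to 530 in Cy3, and in Cy5 it was 9.52 to 25.5 on the SKOV3 arrays and 441 to 568 on the A2780s arrays. Dim probes in Cy5 therefore limit what the SKOV3 arrays can show. TGFB1I1 was not lower in the RNAs labelled as sh-S1 and sh-S2, with log2 ratios of -0.16, 0.12, -0.12 and 0.28 on the 4 arrays (mean 0.03, SE 0.0948, limma's adjusted p = 0.855). These RNAs are called by their labels throughout for that reason. In pCMV-Hic-5 it was higher, with log2 ratios of 4.05 and 2.60. Between the Ctrl RNAs, TGFB1I1 was 4.56 higher in A2780s than in SKOV3 on the log2 scale (3.56 in Cy3 and 5.56 in Cy5). The SKOV3 ratios below all rest on the same labelled RNAs and on that same Ctrl. Of 9 ovarian and epithelial markers tested in SKOV3, 7 were lower in both labelled RNAs, among them PAX8 (-3.58) and KRT18 (-3.53), and the log2 of the summed intensity of 11 of the 12 listed genes was 15.7 to 16.2 in the Ctrl channels, 13.2 to 13.5 in sh-S1 and 13.0 to 13.6 in sh-S2. Among 5 tested fibroblast, immune and endothelial markers, COL3A1 (3.65) and THY1 (1.45) were higher, 3 were not called and the median was -0.001. The log2 of the summed intensity of all 12 listed genes was 11.5 to 11.9 in Ctrl. It was 13.8 to 14.1 in sh-S1 and 13.2 to 13.5 in sh-S2. Bright genes weigh most in such a sum. The endothelial marker PECAM1 was not well above background in either labelled RNA, and E-cadherin (CDH1) was not well above background in A2780s. These marker shifts moved with the SKOV3 results that follow, and their part in them was not tested.

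Among the members in SKOV3, the labelled shRNA-Hic-5 RNAs held more DKK1, FZD7, FZD8 and WNT6 transcript than Ctrl and less DKK3 and FZD6. Of the 45 members, 35 were well above background and tested, and 4 were called higher and 2 lower by limma (adjusted p up to 0.05 together with 2-fold or more). Over all 24955 tested probes the same rule called 7.14% in either direction, 2.98% higher and 4.16% lower. The median log2 ratio of the 35 members was 0.13, against 0.00 over all tested probes. In bulk RNA, fewer cells that express a gene and less RNA per cell cannot be told apart.

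**Figure D1:**
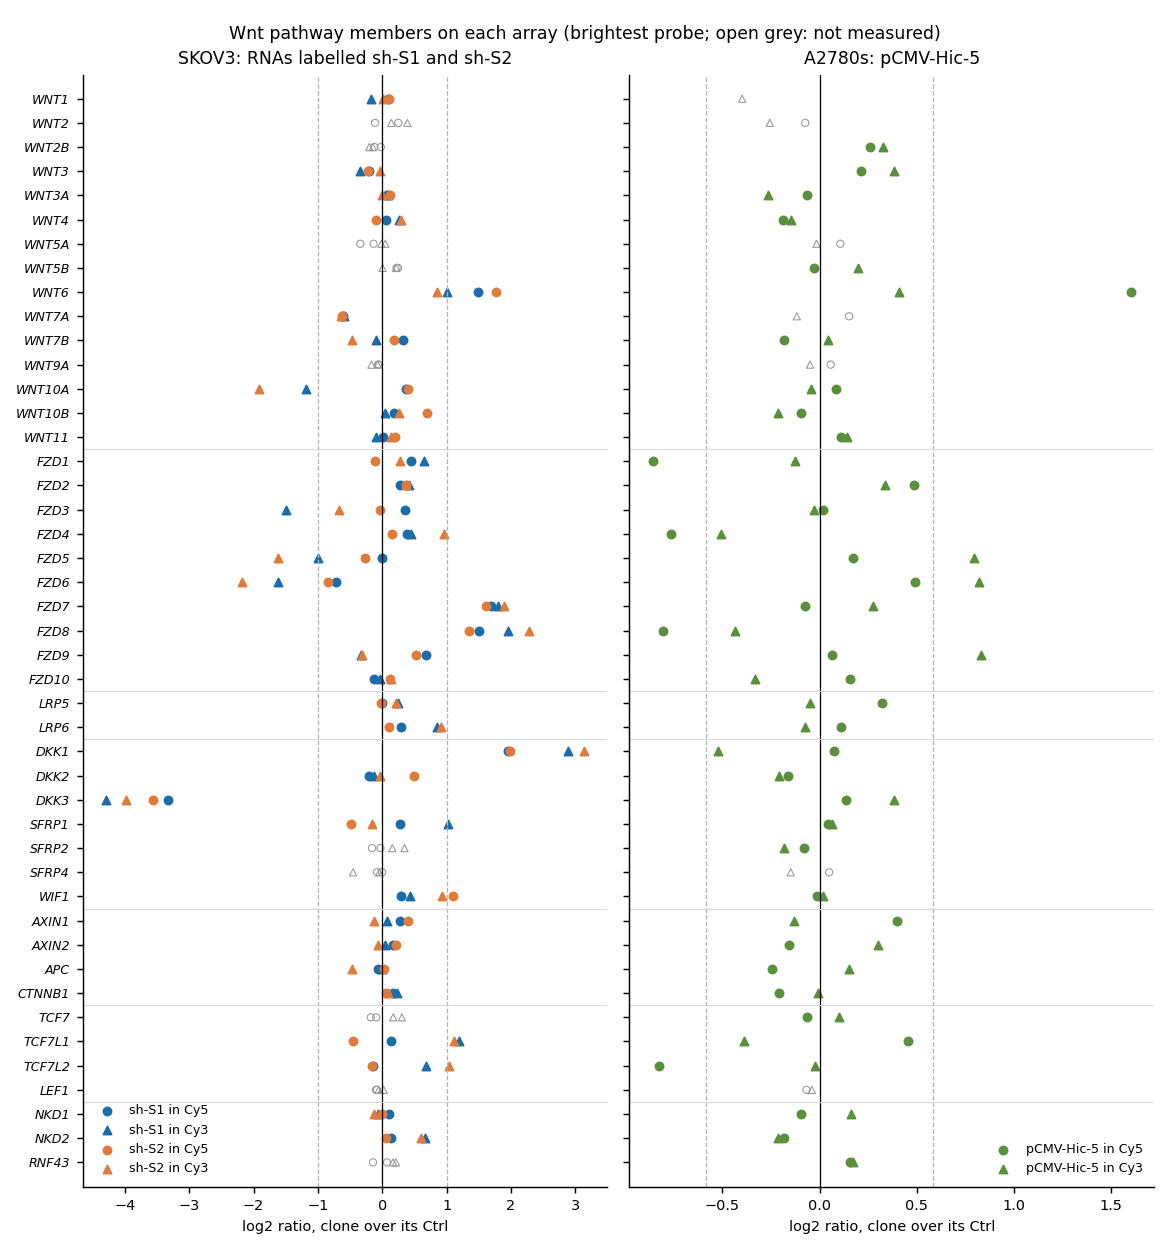
Log2 ratio of each modified clone over its Ctrl for the 45 Wnt pathway members (rows, grouped by role) on the 4 SKOV3 arrays (left) and the 2 A2780s arrays (right); circles have the clone in Cy5 and triangles in Cy3, open grey marks were not measured, and dashed lines stand at 2-fold (left) and 1.5-fold (right), with a different horizontal scale in each panel. DKK1, FZD7, FZD8 and WNT6 lie right of 0 on all 4 SKOV3 arrays, and DKK3 and FZD6 lie left of 0 on all 4.

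Of the 15 ligands, 10 were tested in SKOV3 and 1, WNT6, was called. WNT6 is a ligand known for its part in epithelial organization. Its bright probe had log2 ratios of 1.49 and 1.01 for sh-S1 and 1.77 and 0.85 for sh-S2, with the clone in Cy5 first in each case. All 4 arrays were above 0, and in both clones the array with the clone in Cy5 gave the larger ratio. The mean was 1.28, a 2.43-fold difference (SE 0.0935, n = 2 clones, limma's adjusted p = 0.00013). The dim WNT6 probe on the same transcript was not well above background often enough to be tested, and its mean was -0.01. With the mean over both probes the WNT6 ratio was 0.63 and was not called.

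The 9 other tested ligands were not called, and their log2 ratios ran from -0.62 for WNT7A to 0.29 for WNT10B. The brightest WNT7B probe was at -0.02. A second tested WNT7B probe was below 0 on all 4 arrays (mean -0.60, limma's adjusted p = 0.00341), short of 2-fold. That second probe was well above background on 1 of 2 arrays of each labelled RNA and entered the test through the Ctrl alone. WNT7A, a ligand of the Müllerian duct epithelium, stood at -0.61, -0.59, -0.63 and -0.65 on the 4 arrays. This was the most even of the ligands across dyes and clones, and limma's adjusted p was 0.00295, but the change stayed short of 2-fold. WNT7A was well above background on 1 of 2 arrays of each labelled RNA. It entered the test through the Ctrl alone, where it is high, so the evenness and size of its ratio are uncertain. With the scanner's processed signals the WNT7A ratio was -2.92 and was called lower. WNT10A, with an adjusted p from limma of 0.00897, had 0.37 and 0.39 with the clone in Cy5 but -1.19 and -1.91 with the clone in Cy3. Its sign followed the dye on every array, so no direction is given for it. The 5 ligands WNT2, WNT2B, WNT5A, WNT5B and WNT9A were too dim to be tested in SKOV3.

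The Frizzled receptors were all tested in SKOV3, and 3 of 10 were called. FZD7, a receptor of both the β-catenin and planar polarity branches, had log2 ratios of 1.69, 1.80, 1.61 and 1.89. Its 4 arrays lay close together, and both clones averaged 1.75, a 3.36-fold difference from Ctrl (SE 0.0926, limma's adjusted p = 3.38e-05). FZD8, which binds canonical ligands together with LRP6, had 1.50 and 1.95 for sh-S1 and 1.34 and 2.28 for sh-S2. It was higher on all 4 arrays and was 3.41-fold higher in the mean (log2 ratio 1.77, SE 0.0941, limma's adjusted p = 3.44e-05). FZD6, a receptor best known from planar polarity, was the lower one, with -0.72 and -1.62 for sh-S1 and -0.85 and -2.18 for sh-S2. All 4 arrays were below 0 and the ratio was further from 0 with the clone in Cy3. The mean FZD6 log2 ratio was -1.34, a 2.54-fold lower level (SE 0.115, limma's adjusted p = 0.000253). Taken from the Cy5-labelled clones alone, the FZD6 mean was -0.78, which was not called. The sizes also moved with the scanner's processed signals, to 3.09 for FZD8 and -2.59 for FZD6, both still called.

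The other 7 receptors had log2 ratios from -0.73 for FZD5 to 0.48 for FZD4. FZD5, a receptor whose turnover RNF43 controls, ran from -1.62 to -0.01 on its brightest probe, and was further from 0 with the clone in Cy3. A second FZD5 probe gave a mean of -0.69, and both of these probes had an adjusted p below 0.05 in limma (0.00533 and 0.00326) without reaching 2-fold. The second probe was well above background on 1 of 2 arrays of each labelled RNA. It entered the test through the Ctrl alone, where it is high, so it adds no separate evidence. A further FZD5 probe, too dim to be tested, had a mean of -0.04. FZD4, the receptor of retinal vessel development, and FZD2, a receptor for WNT5A, had adjusted p of 0.00955 and 0.0275 in limma at log2 ratios of 0.48 and 0.35. A second FZD4 probe was also tested and had a mean of 0.04 (limma's adjusted p = 0.799). FZD3, known from axon guidance, had an adjusted p of 0.0143 in limma at -0.46, but its arrays ran from -1.49 to 0.36 and its second probe, not tested, had a mean of 0.20. LRP6, the co-receptor, stood at 0.54 (limma's adjusted p = 0.00534) with a second probe at -0.23, and LRP5 stood at 0.11. The probes of LRP6 disagreed in sign, so no direction is given for it.

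The largest ratios of the set lay among the secreted antagonists, in opposite directions. DKK1, which blocks LRP5 and LRP6, had log2 ratios of 1.95 and 2.89 for sh-S1 and 1.98 and 3.13 for sh-S2. It was higher on all 4 arrays, by 5.60-fold in the mean (log2 ratio 2.49, SE 0.0963, limma's adjusted p = 9.54e-06). DKK3, a relative of DKK1 that does not act through the LRP co-receptors in the same way and is often silenced in carcinomas, had -3.33 and -4.29 for sh-S1 and -3.56 and -3.98 for sh-S2. It was the lowest member on all 4 arrays, 13.8-fold below Ctrl in the mean (log2 ratio -3.79, SE 0.0930, limma's adjusted p = 2.49e-06).

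The 3 DKK3 probes on the strand of the gene gave means of -3.79, -2.47 and -0.88. All 3 were below 0 on every SKOV3 array, the first and the second were called, and the dimmest stayed short of 2-fold (limma's adjusted p = 0.000647). The second probe was well above background on 1 of 2 arrays of each labelled RNA. It entered the test through the Ctrl alone, where it is high. The first and the dimmest were well above background in every channel of the 3 RNAs. The size of the DKK3 difference therefore depended on the probe, while the first and the dimmest had the same direction. With processed signals the brightest probe gave -4.63. A further pair of probes printed under the same gene name lies on the opposite strand and was too dim to be tested. Of the other antagonists, WIF1 had 0.29 and 0.43 for sh-S1 and 1.09 and 0.93 for sh-S2. All 4 arrays were above 0 and sh-S2 was the higher clone, with a mean of 0.68 (SE 0.157, limma's adjusted p = 0.0165) that stayed short of 2-fold. Without sh-S1 the WIF1 ratio was 1.01, past 2-fold, and with processed signals it was 2.51 and was called. This probe was well above background on 1 of 2 sh-S1 arrays and on 3 of 4 Ctrl channels. A second WIF1 probe, too dim to be tested, had a mean of 0.01. DKK2 stood at 0.03. SFRP1 had a mean of 0.17 with its clones on opposite sides of 0, and SFRP2 and SFRP4 were too dim to be tested.

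**Figure D2:**
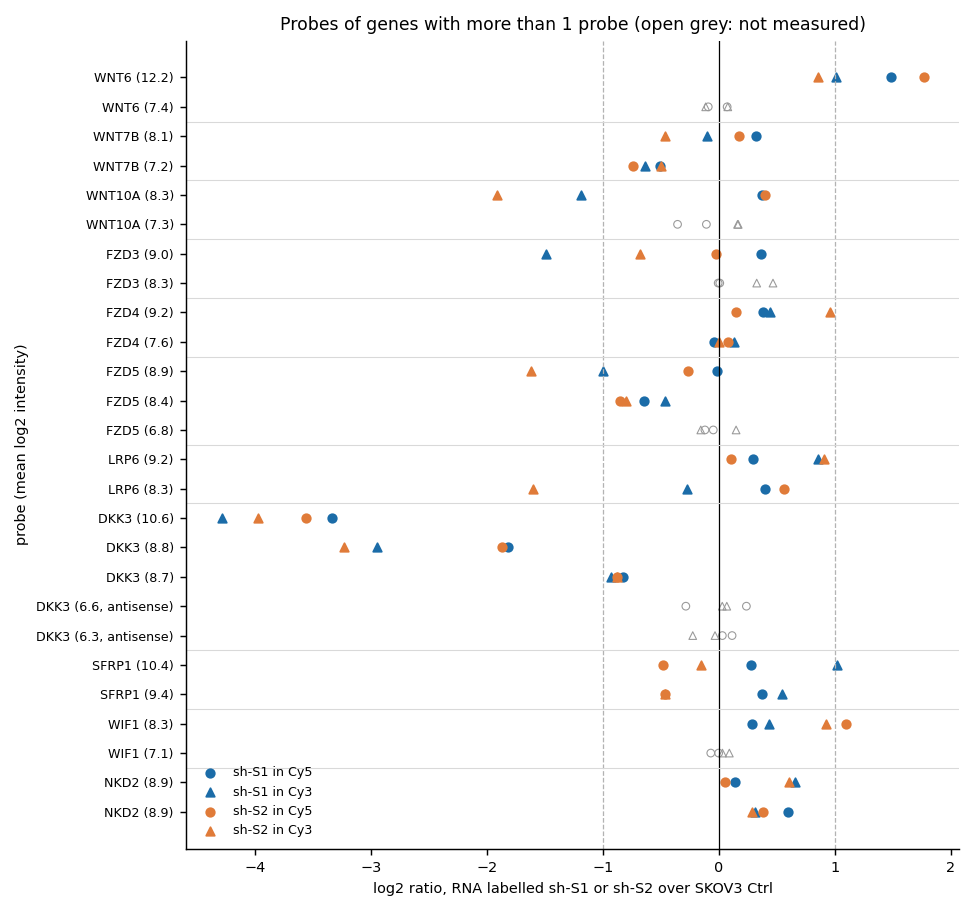
Log2 ratio over the SKOV3 Ctrl for every probe of 11 members with more than 1 probe, each row a probe with its mean log2 intensity in brackets; blue is sh-S1, orange is sh-S2, circles have the clone in Cy5, triangles in Cy3, and open grey marks were not tested. The 3 sense probes of DKK3 are all left of 0 at different distances, only the bright WNT6 probe is displaced, and both SFRP1 probes have sh-S1 right of 0 and sh-S2 left of 0.

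In SKOV3 no tested member that acts inside the cell was called. None of the 4 destruction complex and β-catenin genes was called in SKOV3, in A2780s or between the Ctrl RNAs. β-catenin itself (CTNNB1) had SKOV3 log2 ratios of 0.17, 0.22, 0.06 and 0.09, with a mean of 0.13 (SE 0.0955, limma's adjusted p = 0.355). AXIN1, the scaffold of the complex, was the highest of the 4 at 0.16, and APC, its partner, was the lowest at -0.13. AXIN2, a target gene and a brake of the pathway, stood at 0.09 (limma's adjusted p = 0.561). TCF7L1 and TCF7L2, the factors that carry β-catenin to its genes, stood at 0.49 and 0.35 with limma's adjusted p of 0.0163 and 0.034, both short of 2-fold. Their arrays were uneven. TCF7L1 had 0.13 and 1.19 for sh-S1 and -0.45 and 1.11 for sh-S2, with the clone in Cy5 first. TCF7L2 had -0.15 and -0.16 where the clone was in Cy5 and 0.69 and 1.04 where it was in Cy3. The sign of TCF7L2 followed the dye on every array, so no direction is given for it. The other TCF7L2 probes, too dim to be tested, had means of 0.09 and -0.05. TCF7 and LEF1 were too dim to be tested. Of the feedback inhibitors, NKD2, which binds Dishevelled, stood at 0.36 (limma's adjusted p = 0.0257) and NKD1 at -0.03, and RNF43, which removes Frizzled from the cell surface, was too dim.

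In A2780s, where pCMV-Hic-5 was set against the empty vector, WNT6 and FZD6 were higher and FZD4 and FZD8 lower, all by smaller amounts than the called genes of SKOV3. There is 1 replicate and no test in this line: a call needed a mean of 1.5-fold or more and the same sign on both arrays. Of 38 members measured, 2 were called higher and 2 lower, against 4.58% of all 30530 probes in either direction, 3.26% higher and 1.32% lower. The median of the 38 was 0.02, and that of all probes was -0.01.

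WNT6 had log2 ratios of 1.60 (clone in Cy5) and 0.41 (clone in Cy3) on its bright probe, a mean of 1.00. The arrays agreed in sign and differed widely in size, and the dim probe had a mean of -0.02. FZD6 had 0.49 and 0.82 and was 1.57-fold higher. FZD4 had -0.76 and -0.51 and was 1.55-fold lower, while its second probe had a mean of -0.09. FZD8 had -0.81 and -0.44 and was 1.54-fold lower. The last 3 lie close to the 1.5-fold limit, none reached 2-fold, and none was called with the background model fitted on all spots (0.33, -0.57 and -0.58).

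The members not called in A2780s ran from -0.49 for FZD1 to 0.48 for FZD5. FZD1, a receptor of canonical ligands, had -0.85 and -0.13, and FZD5 had 0.17 and 0.79, so each passed the limit on 1 array alone. DKK1 had 0.07 and -0.52 and DKK3 0.13 and 0.38. Both were far from called, although they had the largest ratios of the set in SKOV3. Among the rest, WNT3 was at 0.30 and WNT4 at -0.17, CTNNB1 was at -0.11, TCF7L2 at -0.42, NKD2 at -0.20 and RNF43 at 0.17.

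With both lines side by side, FZD8 was 1.77 in SKOV3 and -0.62 in A2780s, FZD6 was -1.34 and 0.65, and FZD4 was 0.48 and -0.64. The second FZD4 probe was 0.04 and -0.09, so the FZD4 contrast rests on its brightest probe. WNT6 was 1.28 and 1.00 on its bright probe, above 0 in both lines. Its dim probe was -0.01 in SKOV3, where it was not tested, and -0.02 in A2780s. The WNT6 values above 0 thus rest on the bright probe alone. FZD7 was 1.75 and 0.10, DKK1 was 2.49 and -0.22, and DKK3 was -3.79 and 0.26. These contrasts differ in vector, cell line and slide, which cannot be told apart, and no test was made between them.

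The members also differed between the Ctrl RNAs of both lines, with FZD8, DKK1, WIF1 and FZD7 higher in A2780s and DKK3 and FZD6 higher in SKOV3. Levels per channel were put on a common scale over all 6 arrays, and a member was called where the A2780s and SKOV3 Ctrl differed at least 2-fold with the same direction in Cy3 and in Cy5. This comparison of 1 RNA with 1 RNA has no test, and cell line and slide cannot be told apart in it. Of 39 members compared, 8 were higher in the A2780s Ctrl and 5 lower, against 17.5% of all 30783 probes in either direction, 8.26% higher and 9.26% lower. The median difference was 0.12 for the members and 0.07 for all probes, and with processed signals scaled to the 75th percentile the median of all probes was -0.20. Ovarian and epithelial markers were shifted in this comparison as well. Of 9 ovarian and epithelial markers, 6 were lower in the A2780s Ctrl (median log2 difference -2.77), and the log2 of the summed intensity of the same 11 listed genes was 12.1 to 12.3 there against 15.7 to 16.2 in the SKOV3 Ctrl. Of 9 fibroblast, immune and endothelial markers, 3 were higher in the A2780s Ctrl and 6 were not called (median log2 difference 0.19). The log2 of the summed intensity of all 12 listed genes was 13.5 to 13.7 there against 11.5 to 11.9 in the SKOV3 Ctrl. Bright genes weigh most in this sum. The part of these shifts in the members' differences was not tested.

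Receptors and antagonists stood at both ends. FZD8 was 9.73-fold higher in the A2780s Ctrl (log2 difference 3.28), DKK1 8.36-fold (3.06), WIF1 5.11-fold (2.35) and FZD7 4.38-fold (2.13). NKD2 (1.74), FZD4 (1.61), LRP6 (1.08) and TCF7L2 (1.02) were also higher. For these last 4 the brightest probe stood apart from another probe of the gene, which gave 0.21 for NKD2, -0.55 for FZD4 and -0.02 for LRP6, and 0.56 and -0.08 for TCF7L2. The second WIF1 probe gave 0.60. The A2780s Ctrl was lower in DKK3 by 17.1-fold (log2 difference -4.10), in FZD6 by 5.51-fold (-2.46), in WNT10A by 2.50-fold (-1.32) and in FZD5 by 2.06-fold (-1.04). Other probes gave -0.01 for WNT10A and -0.37 and 0.30 for FZD5, while a second WNT7B probe was at -1.70 where the brightest gave -0.85. WNT7A was also lower in the A2780s Ctrl, by a measured 2.32-fold (log2 difference -1.22). The difference was uneven between the dyes, at -1.75 in Cy3 and -0.68 in Cy5. WNT7A was not well above background in the A2780s Ctrl, so the size of its difference is uncertain. No ligand was called higher in the A2780s Ctrl, and the highest of them was WNT5B at 0.97. With processed signals the differences of WIF1 (4.58), FZD7 (3.32), FZD6 (-4.25) and WNT10A (-3.11) were further from 0, and those of FZD5 (-0.94) and TCF7L2 (0.96) fell short of 2-fold.

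**Figure D3:**
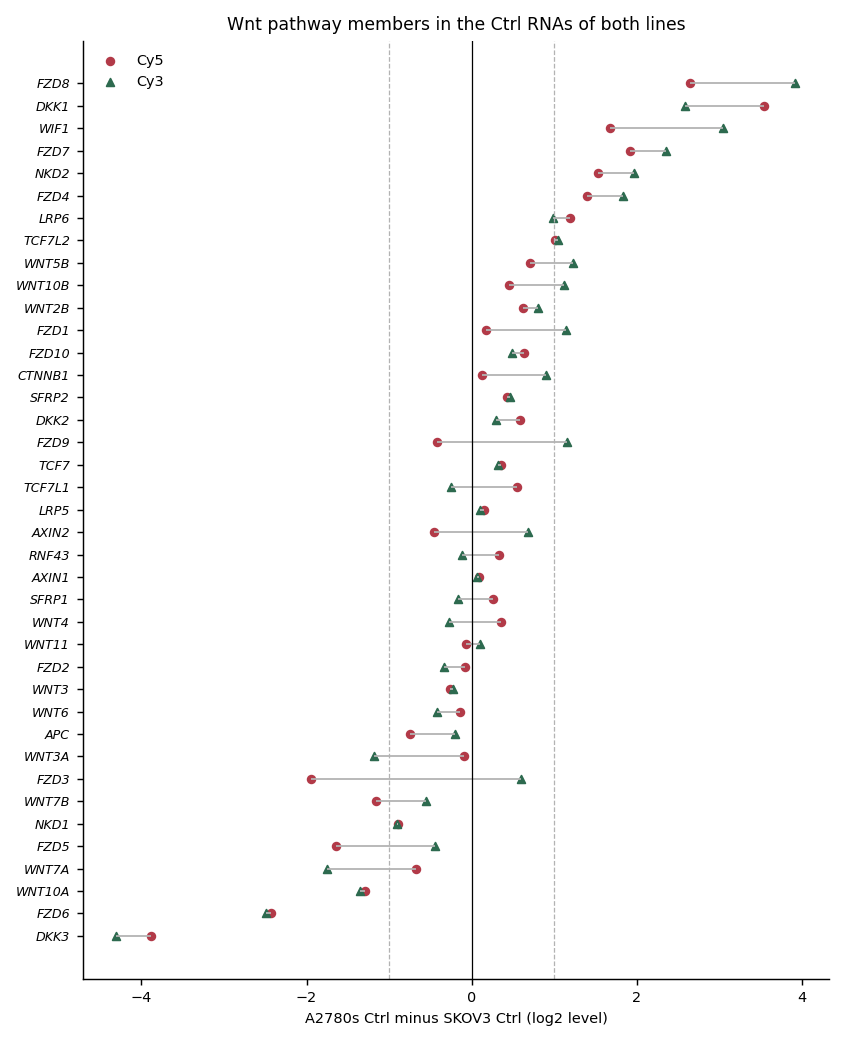
Log2 level in the A2780s Ctrl minus that in the SKOV3 Ctrl for the 39 members compared, ordered by the mean of both dyes; red circles are Cy5, green triangles are Cy3, and dashed lines stand at 2-fold. FZD8, DKK1, WIF1 and FZD7 lie far to the right and DKK3 and FZD6 far to the left in both dyes, while FZD3 lies at -1.94 in Cy5 and 0.59 in Cy3.

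The same scale gives the level of each RNA in every channel. DKK1 stood at 11.6 to 12.7 in the 4 SKOV3 Ctrl channels, at 14.4 and 14.5 in sh-S1, at 14.6 and 14.9 in sh-S2, at 15.1 and 15.2 in the A2780s Ctrl and at 15.2 and 14.7 in pCMV-Hic-5 (log2 intensity). The SKOV3 Ctrl was thus the low RNA and did not overlap the others. DKK3 stood at 12.7 to 13.5 in the SKOV3 Ctrl channels and at 8.71 to 10.1 in the labelled RNAs, 9.02 and 9.18 in the A2780s Ctrl and 9.31 and 9.41 in pCMV-Hic-5. Here the SKOV3 Ctrl was the high RNA, again apart from the other 4.

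FZD7 rested at 9.95 to 10.2 in the SKOV3 Ctrl, 11.6 to 12.1 in the labelled RNAs and 12.1 to 12.4 in both A2780s RNAs. FZD8 had mean levels of 8.45 in the SKOV3 Ctrl, 10.3 in sh-S1, 10.2 in sh-S2, 11.7 in the A2780s Ctrl and 11.1 in pCMV-Hic-5. FZD6 had 9.54, 8.21, 8.18, 7.08 and 7.73 in the same order. For DKK1, DKK3, FZD6, FZD7 and FZD8 the mean level of each labelled RNA lay between those of the SKOV3 and A2780s Ctrl. WNT6 was different on its bright probe. It had 11.7 in the SKOV3 Ctrl, 13.0 and 12.9 in sh-S1 and sh-S2, 11.4 in the A2780s Ctrl and 12.4 in pCMV-Hic-5. On that probe all 3 modified clones lay above both Ctrl RNAs. The dim WNT6 probe, too dim to be tested in SKOV3, had 7.23, 7.54, 6.88, 7.76 and 7.75 for the same RNAs. It did not have that order. The comparisons of the labelled RNAs and of the A2780s Ctrl share the SKOV3 Ctrl, so an unusual level in that 1 RNA would enter both, and no other SKOV3 Ctrl RNA was analysed here.

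**Figure D4:**
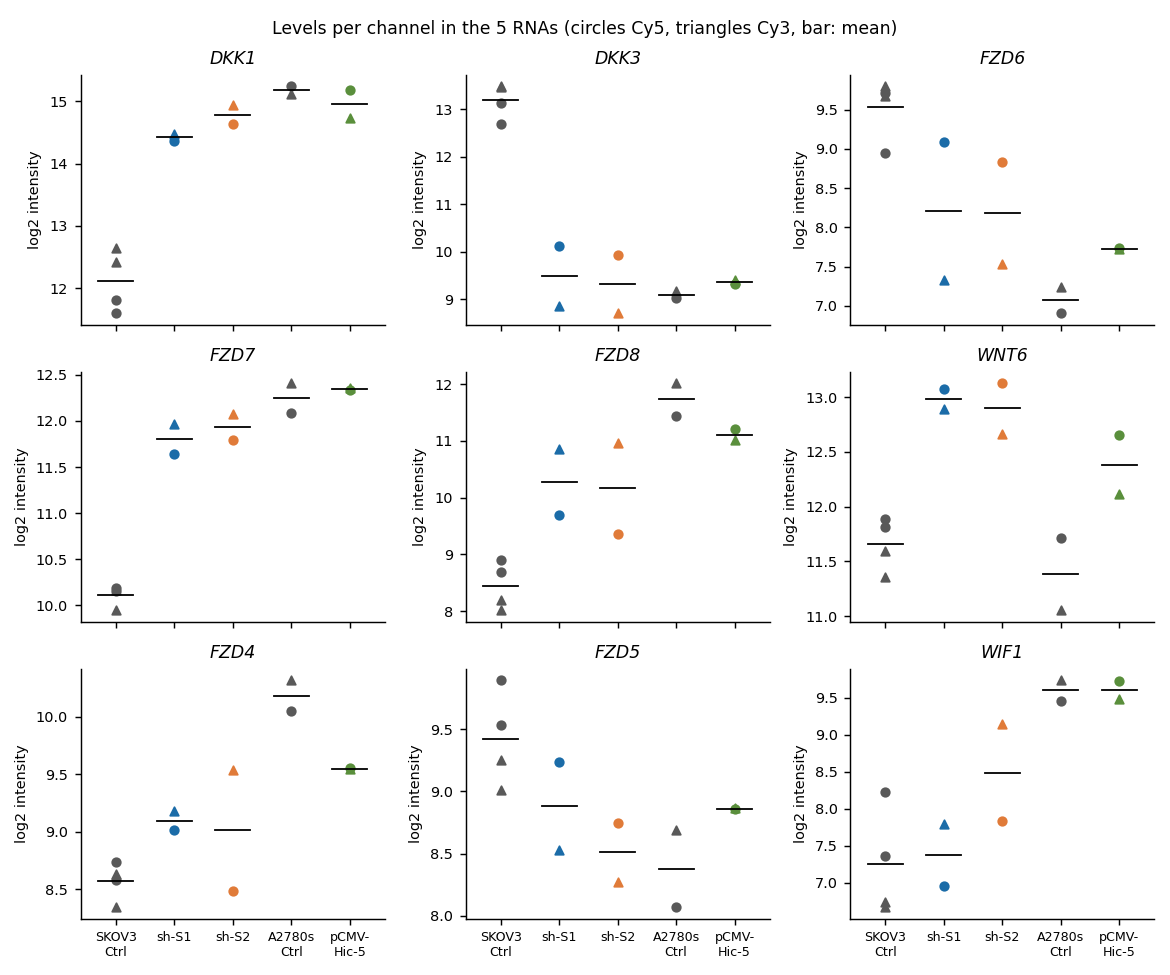
Log2 intensity of 9 members in every channel of the 5 RNAs, with circles for Cy5, triangles for Cy3 and a bar at the mean; the vertical scale differs between genes and does not start at 0. In DKK1, DKK3, FZD6, FZD7 and FZD8 the bars of sh-S1 and sh-S2 lie between the bars of both Ctrl RNAs. In WNT6, shown by its bright probe, the 3 modified clones lie above both. The dim WNT6 probe is not shown and did not have that order.

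Genes of the pathway outside the set were described from 7 further lists with 100 genes, of which 98 were on the array. In SKOV3, 77 were tested, and 5 were called higher and 9 lower, with a median log2 ratio of -0.01. The share over all tested probes was 2.98% higher and 4.16% lower. KREMEN2, a receptor that works with DKK1 to remove LRP6 from the surface, was among the highest, with 2.67, 2.89, 3.44 and 2.70 on the 4 arrays (mean 2.92, SE 0.109, limma's adjusted p = 8.21e-06). TLE2, a corepressor bound by TCF factors, was higher at 1.26, and its relative TLE1 was lower at -1.76. PORCN, the enzyme that lipid-modifies Wnt ligands, was lower at -1.56, and DVL1, which relays the signal from Frizzled, was lower at -1.16.

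In the planar polarity and calcium branch 4 of 20 tested genes were lower and none was higher: PLCB4 at -2.38, VANGL1 at -1.43, PRKCA at -1.41 and CAMK2G at -1.27. The list's median was -0.43, and over all tested probes 4.16% were lower. Known β-catenin target genes went both ways, with 3 of 14 higher and 2 lower and a median of -0.17. CD44 (-3.73), JUN (-3.32), TCF4 (2.14) and ID2 (1.90) had the largest log2 ratios of that list. TCF4 here is the E-protein gene, which shares an old nickname with TCF7L2 and is another gene. In A2780s, 85 genes were measured, and JUN (2.20), EPHB3 (0.84) and FOSL1 (0.62) were called higher and SOSTDC1, a secreted inhibitor of Wnt and BMP signals, lower (-0.81), where 3.26% of all probes were higher and 1.32% lower. Between the Ctrl RNAs, 9 of 88 were higher in A2780s and 18 lower, against 8.26% and 9.26% of all probes.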

How the data were processed

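Ratios came from 6 two-colour arrays. The authors deposited spot intensity values written by Agilent Feature Extraction (version 8.5.1.1 in the submitters' processing notes, 10.7.3.1 in the file headers), with local background and no normalization. Red over green log10 ratios deposited by the authors were checked to be the scanner ratios rounded and not turned on dye-swapped arrays. With limma 3.58.1 in R 4.3.3, normexp (offset 50) removed background. Spots with a background over 1000 (40 on 1 A2780s array) and outlier spots were left out, and ratios were normalized by loess, expressed as log2 of clone over Ctrl and averaged per probe. Dye-swapped arrays of 1 clone were averaged to 1 replicate. In SKOV3 the clone means were tested against 0 with lmFit and eBayes, with Benjamini-Hochberg adjustment over all probes, which leaves out the spread of the Ctrl. A probe entered if its Ctrl signal was well above background on every array of a line, or a clone's signal was on both arrays. Levels used loess and then Aquantile. Nothing says that clone RNAs came from separate cultures. Each probe's spread between these clones was moderated by limma with that of all tested probes, and the SE and p-values rest on both. For FZD7 the SD of the clones was 0.0043 and the SE 0.0926. The p-values measure no spread between cultures. SKOV3 and A2780s arrays lie on separate slides, so a slide block could not be fitted. Named genes were the called members, the highest and lowest uncalled per role, and up to 4 called genes of each other list. The calling rules were run on simulated data with independent noise and large changes, so changes near the fold limits were not covered. Members, lists and rules were chosen with earlier results of these data known. Arrays have no read depth, so their number limits the precision. Exon and UTR annotation of the probes was not used here. Alternatives changed background, normalization, probe filter, probe choice, dyes, threshold, clones and block.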

Additional observations from a re-analysis of the deposited data

Results flagged for a closer look

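SFRP1, a secreted antagonist that binds Wnt ligands, moved in opposite directions in the clones. Its log2 ratios were 0.28 and 1.02 on the arrays of sh-S1 (mean 0.65) and -0.48 and -0.15 on those of sh-S2 (mean -0.32), a gap of 0.96. A second probe had 0.37 and 0.54 for sh-S1 and -0.47 and -0.46 for sh-S2. FZD10 also had opposite signs on both arrays of each clone, with means of -0.08 for sh-S1 and 0.13 for sh-S2, a gap of -0.21. The differences between the clones were not tested, since each clone is 1 replicate. The FZD10 probe was well above background on 1 of 2 sh-S1 arrays. Among the tested members these were the 2 with such a pattern. The share of all tested probes with this pattern was not computed, so the count is not read as a result about the members.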

How the results depend on the processing

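The calls of DKK1, FZD7 and FZD8 (higher) and DKK3 (lower) in SKOV3 held under every alternative run, WNT6 was lost with the mean over probes and with the Cy3-labelled clones alone, and FZD6 was lost with the Cy5-labelled clones alone. The 4 members higher and 2 lower became 7 and 3 with the scanner's processed signals and likewise 7 and 3 with the deposited log10 ratios, where WNT10B, LRP6, WIF1 and WNT7A were added. Over all probes, processed signals gave 1971 higher and 2355 lower in place of 743 and 1038. On the adjusted p alone the member counts became 11 and 6, where 3886 and 4044 of all 24955 probes were called. With the clone in Cy5 alone they were 4 and 1 (838 and 1144 over all probes). With the clone in Cy3 alone they were 4 and 5 (1219 and 1372 over all probes). Without a clone, by fold alone and with no test, 4 to 5 members were higher and 2 lower. Over all probes this gave 778 to 834 higher and 972 to 1155 lower. With dye orientation as a replicate block over the 4 arrays the counts were 4 and 2, and the block changed no call of a member. In A2780s the 2 higher and 2 lower became 1 and 0 with normexp fitted on all spots (668 and 293 over all probes). They were 2 and 1 with median centring (1191 and 329) and 1 and 1 with the mean over probes. With pCMV-Hic-5 in Cy5 alone they were 1 and 4 (1795 and 1516), and in Cy3 alone 3 and 0 (1019 and 210). At 2-fold they were 1 and 0 (194 and 29), with WNT6 the 1 left. The main rule called 994 higher and 403 lower of all 30530 probes. Between the Ctrl RNAs, the 8 higher and 5 lower in A2780s became 10 and 8 with processed signals, where APC was among the lower and WNT5B and WNT10B among the higher, and 4 and 4 with the mean over probes. Over all probes, processed signals gave 4288 higher and 7153 lower in place of 2544 and 2849. None of the members called in the report changed its sign under an alternative of its own comparison, and the causes of the changes were not tested. Dim Cy5 signals on the SKOV3 arrays limit the dim members, and 5 of the 45 were measured in neither line.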
